A study of Homo sapiens with 18 samples.

Results

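The genomic targets of 2 capture kits for methylated DNA, MethylCollector Ultra and MethylCollector, were compared in 3 human cancer cell lines. HCT15 is a colon cancer line, and DU145 and PC3 are prostate cancer lines. The members were the 6 sequenced captures of these kits, 1 library per kit and line, out of 18 samples in the series, and the reduced representation bisulfite sequencing (RRBS) profiles of the same 3 lines gave the methylation of single CpGs. Each line was thus captured by both kits and the lines formed 3 pairs, which are different cell lines and not repeat captures of one DNA. According to the study's methods the same amount of sheared DNA entered each capture, and the kits were used at their highest salt concentration. The libraries of the lines carried different barcodes, and no capture was repeated, so the spread between repeat captures of 1 DNA was not measured.

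Cytosine methylation in human DNA sits mostly at CpG dinucleotides, which are rare across the genome and clustered in CpG islands, many of them at promoters. Proteins with a methyl-CpG binding domain (MBD) bind methylated CpGs, and a fragment with several methylated CpGs offers several binding sites. MethylCollector captures with the MBD2b protein, an isoform of MBD2. MethylCollector Ultra uses MBD2b together with MBD3L1, a protein related to MBD3 that lacks a methyl-CpG binding domain of its own and forms a complex with MBD2b.

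The Ultra libraries held 652800, 30336 and 578738 distinct fragments, and the MethylCollector libraries 265628, 29613 and 84998, in the order HCT15, DU145, PC3 that all triplets of values follow unless named. Between 97.9% and 98.6% of the depth lay on the autosomes, to which all values below refer. CpGs methylated in only 1 line by RRBS were most enriched in the libraries of that same line in all 6 cases, although this contrast was lowest for DU145. In DU145 the kits had nearly equal numbers of fragments, whereas Ultra was deeper in HCT15 and PC3, and depth and kit cannot be told apart in those lines. With 3 pairs an exact sign-flip test cannot give a two-sided p below 0.25, and an exact permutation test of 3 against 3 cannot go below 0.1, so each comparison is described by its size, its spread and the number of lines that share its direction.

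Windows around a methylated and a nearly unmethylated CpG show CpG-dense sequence at both ends of the methylation scale. In the class of CpGs methylated at 90% or more with 20 or more other RRBS CpGs within 100 bp, the window with the highest summed depth share over the 6 libraries lay at chr20:26189969-26190268 (GRCh37, plus strand), partly in annotated exons of the non-coding RNA gene MIR663AHG. It held 36 CpGs, given in capitals, and its central CpG was methylated at 98.2%, 98.1% and 97.9% in HCT15, DU145 and PC3. The Ultra depth at this CpG was 6, 0 and 7 fragments and the MethylCollector depth 7, 4 and 4 fragments, although Ultra had the larger total in each line. For methylated CpGs with 5 to 9 neighbours the corresponding window was chr17:7909652-7909951 in a coding exon of GUCY2D, the retinal guanylate cyclase, with 21 CpGs and central methylation of 96.9%, 94.8% and 95.8%. Its depth was 15, 4 and 14 fragments in Ultra and 19, 0 and 7 in MethylCollector. For CpGs methylated under 10% with 20 or more neighbours it was the intergenic window chr10:131988640-131988939, with 37 CpGs and central methylation of 4.17%, 2.50% and 7.69%, where Ultra had 2, 1 and 2 fragments and MethylCollector 1, 1 and 1.
MIR663AHG window: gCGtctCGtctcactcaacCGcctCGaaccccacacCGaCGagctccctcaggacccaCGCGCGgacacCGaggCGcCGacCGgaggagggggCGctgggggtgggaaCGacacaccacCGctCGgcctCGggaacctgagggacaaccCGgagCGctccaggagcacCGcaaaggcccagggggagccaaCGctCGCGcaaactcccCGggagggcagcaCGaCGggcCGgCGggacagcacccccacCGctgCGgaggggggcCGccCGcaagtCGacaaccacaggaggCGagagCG
GUCY2D window: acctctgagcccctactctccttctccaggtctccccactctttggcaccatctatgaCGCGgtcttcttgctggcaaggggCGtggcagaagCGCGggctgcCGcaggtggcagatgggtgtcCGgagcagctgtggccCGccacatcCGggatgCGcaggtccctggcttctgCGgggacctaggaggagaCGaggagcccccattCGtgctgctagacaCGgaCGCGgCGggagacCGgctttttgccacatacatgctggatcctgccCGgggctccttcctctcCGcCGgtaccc
Unmethylated window: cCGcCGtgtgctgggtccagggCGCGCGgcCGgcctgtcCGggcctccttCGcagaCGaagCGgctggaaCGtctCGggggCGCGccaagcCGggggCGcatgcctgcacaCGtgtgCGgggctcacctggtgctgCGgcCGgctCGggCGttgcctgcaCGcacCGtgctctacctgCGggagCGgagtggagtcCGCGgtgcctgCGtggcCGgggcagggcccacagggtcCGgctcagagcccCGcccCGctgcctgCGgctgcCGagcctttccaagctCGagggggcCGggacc
The first and last windows carry almost the same number of CpGs and differ in the methylation of their central CpG. The word unmethylated refers to that CpG only, as the methylation of the other CpGs in the window is not given here. Single windows hold too few fragments to separate the kits, so the comparisons below sum the depth over classes of CpGs, promoters and tiles.

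Ultra placed a smaller share of its depth in promoters and exons, and a larger share in introns and intergenic space, than MethylCollector in each of the 3 lines. Promoters (1 kb on either side of the 5′ end of protein-coding genes, 1.31% of the autosomes) took 5.73%, 5.09% and 3.90% of the Ultra depth in HCT15, DU145 and PC3, against 9.02%, 6.08% and 5.79% of the MethylCollector depth. All 3 Ultra values lay below all 3 MethylCollector values. The mean log2 ratio was -0.49 ± 0.21 (SD, n = 3), a 0.710-fold share. It was -0.26 in DU145, where the kits had nearly equal depth, against -0.66 in HCT15 and -0.57 in PC3. Exons outside promoters, 3.56% of the autosomes, took 16.1%, 17.3% and 15.1% in Ultra and 22.0%, 22.5% and 21.7% in MethylCollector, a mean log2 ratio of -0.45 ± 0.07. The exon shares of the 2 kits were separated by a wider gap than the spread among lines within either kit. Introns took 43.6%, 41.9% and 46.2% in Ultra and 38.3%, 38.9% and 41.7% in MethylCollector, a mean log2 ratio of 0.15 ± 0.04. Intergenic space took 34.7%, 35.7% and 34.8% in Ultra and 30.6%, 32.5% and 30.8% in MethylCollector, a mean log2 ratio of 0.16 ± 0.02. The exact sign-flip p was 0.25 for each class, and the exact unpaired permutation p was 0.1. For the smallest libraries the 95% Wilson intervals of the promoter share were 4.85% to 5.35% (Ultra, DU145) and 5.81% to 6.36% (MethylCollector, DU145), which do not overlap and cover counting error only.

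**Figure D1:**
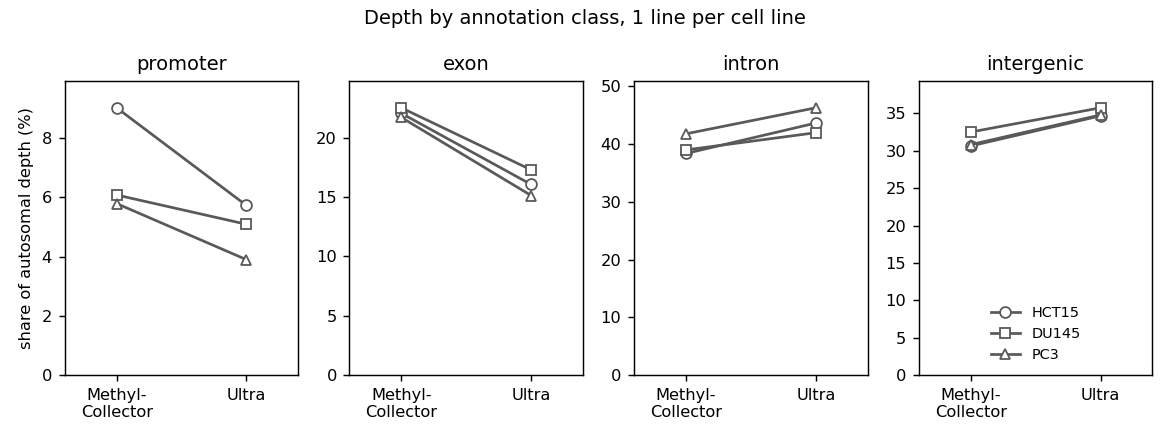
Share of autosomal depth (%, vertical axes starting at 0) in promoters, exons, introns and intergenic space for MethylCollector and MethylCollector Ultra, with a marker shape and a line for each of the 3 cell lines. Every line falls from MethylCollector to Ultra in promoters and exons and rises in introns and intergenic space.

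The ratio of the kits fell as the number of CpGs in the sequence rose. When the autosomes were split into 200 bp tiles by the number of CpGs in the reference sequence, both kits gave little depth to tiles with few CpGs, but Ultra gave more. Tiles without a CpG had an enrichment, that is depth relative to the autosomal mean, of 0.172, 0.135 and 0.170 in Ultra and 0.0652, 0.0401 and 0.0861 in MethylCollector, a 2.59-fold higher mean ratio. The ratio was 2.39-fold for tiles with 1 CpG, 1.82-fold for 2 to 3 CpGs and 1.35-fold for 4 to 6 CpGs. The class of 4 to 6 CpGs was the most uniform, with log2 ratios of 0.43, 0.42 and 0.44 in HCT15, DU145 and PC3. The kits were nearly level at 7 to 10 CpGs, where the ratio was 0.954-fold and the log2 ratios were -0.01, -0.13 and -0.06. Above this Ultra was lower, at 0.694-fold for 11 to 15 CpGs and 0.538-fold for 16 or more. In the densest tiles the enrichment was 19.2, 22.6 and 14.2 in Ultra and 38.3, 34.7 and 29.6 in MethylCollector. Tiles with up to 3 CpGs together drew between 20.6% and 25.02% of the Ultra depth and between 8.82% and 14.1% of the MethylCollector depth.

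**Figure D2:**
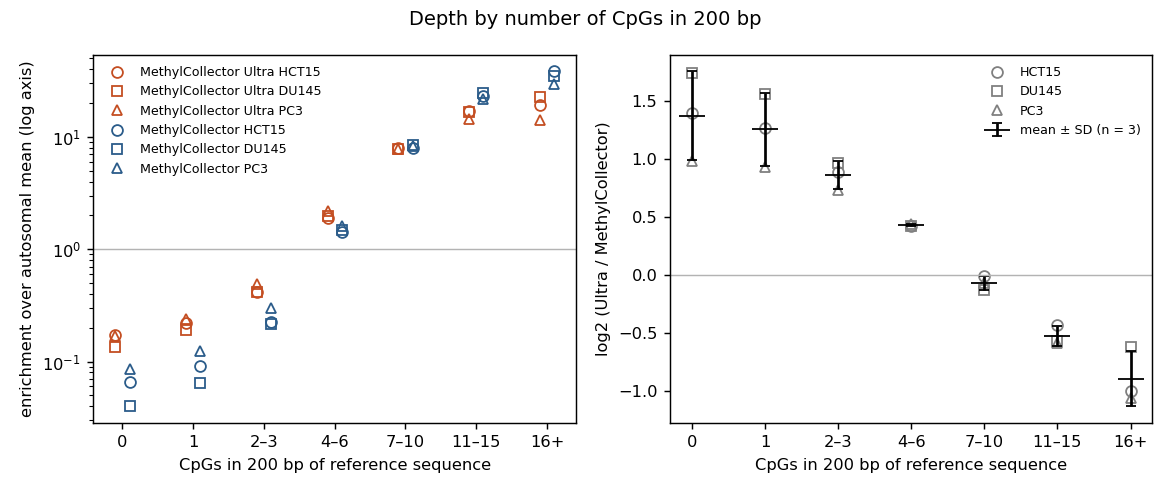
Left: enrichment over the autosomal mean (log axis) of each of the 6 libraries by the number of CpGs in 200 bp. Right: log2 ratio of Ultra to MethylCollector for each cell line with the mean and SD over 3 lines, which passes from above 0 for 4 to 6 CpGs and fewer to below 0 for 11 to 15 CpGs and more.

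The order by CpG number held inside promoters, introns and intergenic space, and in exons from 1 CpG upwards. In exons, tiles without a CpG had a lower mean ratio than tiles with 1 CpG, 1.65-fold against 2.10-fold. Among tiles without a CpG the mean ratio was 3.26-fold in promoters, 1.65-fold in exons, 2.55-fold in introns and 2.71-fold in intergenic space, with Ultra higher in 3 of 3 lines in each. Among tiles with 16 or more CpGs it was 0.568-fold, 0.513-fold, 0.557-fold and 0.540-fold, with Ultra lower in 3 of 3 lines in each. For 7 to 10 CpGs the exon ratio was 0.860-fold and lower in 3 of 3 lines, whereas the intergenic ratio was 1.00-fold with Ultra higher in 2 of 3 lines. Dense tiles in introns and intergenic space, which as classes had a larger share in Ultra, thus had a lower Ultra enrichment.

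Whole chromosomes followed the same order. Chromosome 19, with 18.9 CpGs per kb the densest autosome, had a lower Ultra share by a mean log2 ratio of -0.23 ± 0.02 (SD, n = 3), and chromosome 16, with 13.9 CpGs per kb, by -0.19 ± 0.07. Chromosome 3, with 8.34 CpGs per kb, had a higher share, with log2 ratios of 0.17, 0.18 and 0.17 in HCT15, DU145 and PC3. Ultra was higher in all 3 lines on 10 autosomes and lower in all 3 lines on 6, namely 7, 16, 17, 19, 20 and 21. Over the 22 autosomes, which come from the same libraries and are not independent, CpG density and the mean log2 ratio had a Pearson r of -0.77 and a Spearman correlation of -0.72. Chromosomes of alike density could still differ, as chromosome 21 had a mean log2 ratio of -0.17 at 10.8 CpGs per kb and chromosome 15 one of 0.08 at 10.7 CpGs per kb. On chromosome 21, however, much of the gap between the kits lay in 1 window of 10 kb. That window held 0.139%, 0.284% and 0.103% of the Ultra depth and 0.344%, 0.647% and 0.279% of the MethylCollector depth. The whole chromosome held 1.85%, 2.80% and 2.38% against 2.10%, 3.05% and 2.76%. Chromosome shares were not recomputed without this window.

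CpGs were then classed by their RRBS methylation. Between 1334709 and 1712853 autosomal CpGs per line had a bisulfite coverage of at least 20, and their median coverage was 31 to 46. At CpGs methylated at 90% or more the enrichment was 23.8, 19.2 and 21.0 in Ultra and 40.03, 28.1 and 35.8 in MethylCollector, a mean log2 ratio of -0.69 ± 0.12 and a 0.620-fold enrichment. All Ultra values lay below all MethylCollector values. The mean log2 ratio was -0.59 at 70 to 90% methylation, -0.70 at 30 to 70% and -0.64 at 10 to 30%, with Ultra lower in 3 of 3 lines in each. At CpGs under 10% the enrichment was 1.096, 3.72 and 1.86 in Ultra and 1.36, 3.32 and 2.47 in MethylCollector, and DU145 went in the other direction from HCT15 and PC3 (exact sign-flip p = 0.5). The ratio under 10% exceeded that at 90% or more by 0.50 ± 0.18 on the log2 scale, in 3 of 3 lines. The DU145 libraries of both kits had the highest values in the class under 10%.

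Among the most methylated CpGs, the difference grew with the number of other RRBS CpGs nearby. This number counts CpGs with an RRBS coverage of at least 20 and is not the CpG density of the sequence. In the class with 0 to 1 neighbours the window of highest summed depth share, chr12:25055863-25056162, held 34 CpGs. With 20 or more other RRBS CpGs within 100 bp the enrichment was 56.6, 120 and 63.6 in Ultra and 143, 234 and 172 in MethylCollector, a mean log2 ratio of -1.25 ± 0.25 or 0.422-fold. The DU145 values of this class rested on 273 and 469 fragments, and their 95% Poisson intervals ran from 88.5% to 113% and from 91.2% to 109% of the value. With 10 to 19 neighbours the mean log2 ratio was -0.97 ± 0.26, with 5 to 9 it was -0.63 ± 0.09, and with 2 to 4 it was -0.24 ± 0.04, each lower in 3 of 3 lines. With 0 to 1 neighbours the enrichment was 7.02, 3.75 and 6.13 in Ultra and 8.00, 3.56 and 6.80 in MethylCollector, a mean log2 ratio of -0.09 ± 0.14 with DU145 in the other direction. That last class changed sign with how neighbours were counted, since the mean log2 ratio was 0.37, higher in all 3 lines, when all CpGs in the RRBS files counted as neighbours whatever their coverage. The log2 ratio with 0 to 1 neighbours exceeded that with 20 or more by 1.15, 1.03 and 1.29 in HCT15, DU145 and PC3 (exact sign-flip p = 0.25, n = 3). Of 25 combinations of methylation and neighbour class, Ultra was lower in all 3 lines in 15 and higher in all 3 lines in 1, which held CpGs under 10% with 0 to 1 neighbours.

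**Figure D3:**
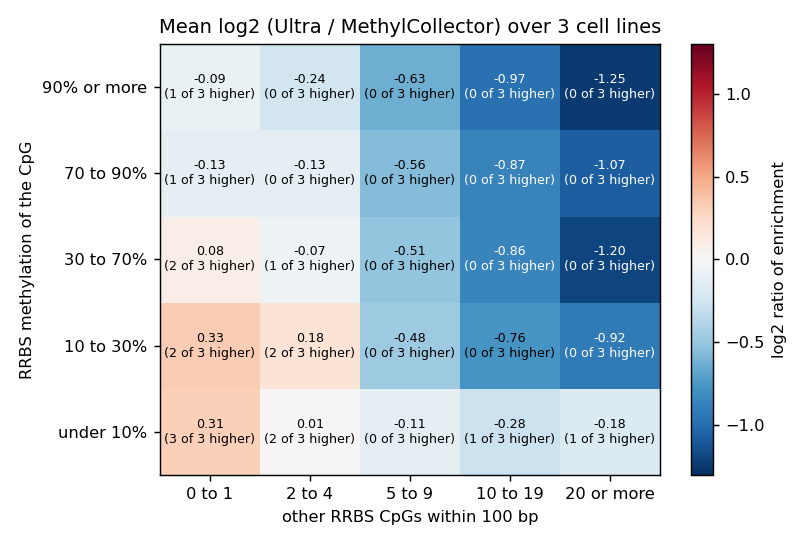
Mean over 3 cell lines of the log2 ratio of Ultra to MethylCollector enrichment, by RRBS methylation of the CpG (vertical) and number of other RRBS CpGs within 100 bp (horizontal), with the number of lines in which Ultra was higher. The ratio falls to -1.25 for CpGs methylated at 90% or more with 20 or more neighbours and lies above 0 in the cells of low methylation with 0 to 1 neighbours.

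An RRBS value of a single CpG does not give the state of the whole fragment, so neighbourhoods were also classed by all RRBS CpGs within 100 bp. Where the CpG and all its neighbours, 10 or more of them, were at 90% or more, the mean log2 ratio was -1.07 ± 0.26, and with 2 to 9 neighbours it was -0.50 ± 0.05. CpGs under 10% whose window averaged 50% or more had an enrichment of 11.8, 19.4 and 12.5 in Ultra and 18.3, 32.9 and 19.9 in MethylCollector, a mean log2 ratio of -0.69 ± 0.07. This ratio equalled that of CpGs at 90% or more to 2 decimals. Where all of 2 to 9 neighbours and the CpG were under 10%, the log2 ratios were 0.58, 1.05 and -0.87 on as few as 3 summed reads of depth, and no difference was detectable at this depth.

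Promoters joined both properties. Those with fewer than 20 CpGs in 2 kb had an enrichment of 0.248, 0.320 and 0.283 in Ultra and 0.114, 0.0749 and 0.175 in MethylCollector, a 2.47-fold ratio. Those with 150 or more had 8.25, 7.43 and 4.54 in Ultra and 16.1, 9.54 and 7.91 in MethylCollector, a 0.612-fold ratio. Promoters with 20 to 49 CpGs were 1.17-fold, those with 50 to 99 were 0.763-fold and those with 100 to under 150 were 0.674-fold, and the lines shared the direction in each. The ratio fell with each step in CpG number, as it did for tiles.

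Within one class of CpG number the direction depended on promoter methylation. Among promoters with 100 to under 150 CpGs and a mean RRBS methylation of 60% or more, the enrichment was 22.0, 21.2 and 20.2 in Ultra and 40.3, 39.95 and 40.9 in MethylCollector, a mean log2 ratio of -0.94 ± 0.07. Among those under 20% it was 1.25, 1.68 and 1.23 in Ultra and 1.14, 1.17 and 1.06 in MethylCollector, a mean log2 ratio of 0.29 ± 0.21, higher in 3 of 3 lines. With 50 to 99 CpGs the mean log2 ratio was -0.55 ± 0.16 at 60% or more and 0.25 ± 0.13 under 20%. With 150 or more CpGs it was -1.004 ± 0.17 at 60% or more, and -0.08 ± 0.32 under 20% with Ultra higher in 1 of 3 lines. The ratio between methylated and unmethylated promoters of equal CpG class was therefore larger in MethylCollector than in Ultra in all 3 lines. This held in the classes of 50 to 99, 100 to under 150 and 150 or more CpGs.

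The number of promoters reached did not follow the share of depth. When the larger library of each pair was scaled to the fragments of the smaller, Ultra reached 6142, 1332 and 2495 of 19229 promoters with at least 1 fragment and MethylCollector 5825, 1365 and 2735. Ultra was higher in HCT15 and lower in DU145 and PC3 (exact sign-flip p = 0.75). Promoters with at least 2 fragments numbered 3285, 195 and 631 in Ultra and 3706, 344 and 1068 in MethylCollector, fewer in 3 of 3 lines. The MethylCollector fragments thus fell more often on promoters that already had one.

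Of 1435 promoters with depth worth at least 20 fragments over the 6 libraries, 8 were lower in Ultra and 0 were higher at an adjusted p under 0.05 (limma on log2 depth with cell line as a block, Benjamini-Hochberg), which is 0.557% and 0% of those tested. The filter summed unscaled fragments, so the deep Ultra libraries of HCT15 and PC3 weighed most in which promoters were tested. At an unadjusted p under 0.05 limma counted 140 lower and 6 higher. Ultra was lower in all 3 lines at 353 of them (24.6%) and higher in all 3 at 15 (1.05%). This split depended on the scaling. The median log2 difference of the tested promoters was -0.41, and 75.6% of them were below 0 with library totals as the scale, against 56.6% with their own median as the scale and 43.8% with edgeR's TMM factors, under both of which 0 passed in either direction. The calls describe shares of each library's depth. Without HCT15 0 promoters were lower, without DU145 126 were, and without PC3 8 were lower and 3 higher.

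The 8 promoters were methylated in most lines. ABHD16B, which encodes an alpha/beta hydrolase (GRCh37 chr20:62491851-62493851, 139 CpGs), had 36.8, 34.1 and 39.7 parts per 1000000 of the autosomal depth (ppm) in Ultra and 97.1, 255 and 199 in MethylCollector. The 3 Ultra values lay close together and below all MethylCollector values, with a mean log2 difference of -1.95 ± 0.32 (SE, limma adjusted p = 2.75e-06) and RRBS methylation of 96.6%, 96.6% and 97.5%. FGF4, a fibroblast growth factor (chr11:69589109-69591109, 183 CpGs), had 47.1, 26.0 and 20.9 ppm in Ultra and 128, 123 and 118 in MethylCollector. Its methylation was lower in DU145 and PC3, at 64.3% and 48.7%, than in HCT15 at 91.8%. GPR25, a G protein-coupled receptor gene, had 36.0, 0 and 123 against 84.5, 163 and 232 ppm, so the kits overlapped across lines although each line was lower in Ultra. Its log2 differences were -1.04, -4.11 and -0.87 in HCT15, DU145 and PC3, beside a limma SE of 0.37. The limma SE and p here and below draw on variance shared over promoters. They do not measure the spread of a single promoter over the lines. TRIM71, a stem cell RNA-binding protein, had 38.9, 32.9 and 57.9 against 103, 185 and 131 ppm. PFN3, a testis profilin, and CACNA1B, a neuronal calcium channel subunit, had mean log2 differences of -1.60 and -1.37. CCDC166 had the smallest at -1.02, and the unnamed gene ENSG00000285880 had -1.95. Without HCT15 none of the 8 passed (limma adjusted p = 0.717 for each). Without DU145 the mean log2 difference came to -0.96 at GPR25, -0.84 at ENSG00000285880 and -0.99 at PFN3, and these 3 did not pass (limma adjusted p = 0.124, 0.113 and 0.0548). Without PC3 GPR25, at -2.57, and CCDC166, at -0.65, did not pass (limma adjusted p = 0.0773 for both). The promoters of NWD2 and SLC7A4 filled the list of 10 with mean log2 differences of -2.19 and -2.09 and did not pass (limma adjusted p = 0.077 and 0.087). Without DU145 they came to -1.22 and -1.35 and passed (limma adjusted p = 0.0379 and 0.0125). In DU145 1 fragment of mean length is worth 33.4 ppm in Ultra and 34.2 ppm in MethylCollector, and a count of 0 allows up to 100 (Ultra) or 103 (MethylCollector) ppm there, counting error only.

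**Figure D4:**
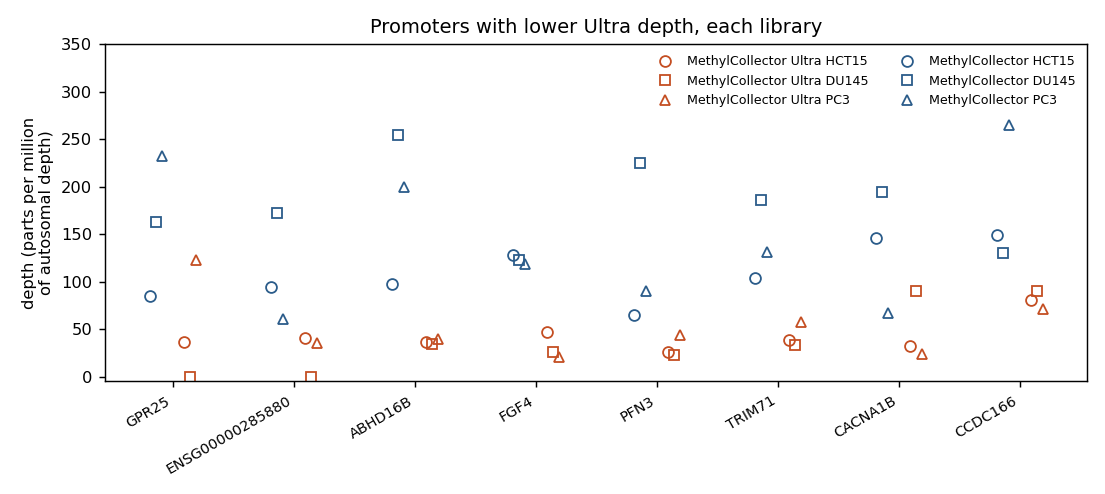
Depth at the 8 promoters that passed the test, in ppm of autosomal depth, for each of the 6 libraries (colour: kit; marker: cell line). The Ultra values lie below the MethylCollector values of the same line at every promoter, and all Ultra values lie below all MethylCollector values at ABHD16B, FGF4, PFN3, TRIM71, CCDC166 and ENSG00000285880.

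No promoter was higher in Ultra past the threshold. VDR, the vitamin D receptor gene (chr12:48335831-48337831, 78 CpGs), had the largest mean log2 difference in that direction, 2.00 ± 0.70 (SE, limma adjusted p = 0.217), or 1.15 without DU145. It had 15.3, 121 and 17.5 ppm in Ultra and 4.13, 0 and 0 in MethylCollector. These came from 9, 4 and 9 Ultra fragments and 1, 0 and 0 of MethylCollector, so it passed the depth filter mostly through Ultra. POU5F1, a pluripotency factor, followed with 22.8, 65.7 and 9.33 against 19.7, 0 and 0. ID4, DCAF4L2, AMT, PGLYRP1, SPIB, EHD3, PTX4 and ADAM11 had mean log2 differences between 0.84 and 1.12 with adjusted p between 0.411 and 0.701 (limma). At all 10 promoters the MethylCollector library of DU145 had no depth, and most of these differences rest on 1 to a few fragments in that line.

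Lists of genes with known methylation habits were summed over all their annotated promoters. Of 50 genes often methylated in colon or prostate cancer, which were chosen with results of these data known, the summed enrichment was 14.4, 6.75 and 6.02 in Ultra and 27.8, 17.8 and 13.7 in MethylCollector, a 0.443-fold ratio beside 0.710-fold over all 19229 protein-coding promoters. Of these, 12 could be tested and 0 passed, where 0.557% of all tested promoters were lower. At that share 0 calls among 12 says nothing about the list.
RASSF1, a tumour suppressor often silenced by methylation, had 35.9, 0 and 38.8 ppm in Ultra and 74.9, 70.2 and 90.7 in MethylCollector, and GATA5, an endoderm transcription factor, had 53.2, 0 and 23.6 against 132, 0 and 63.2. RASSF1 was lower in each line and GATA5 in HCT15 and PC3, with limma adjusted p of 0.147 and 0.687. The neuronal factor NEUROG1 had 21.7, 34.2 and 6.75 against 76.4, 46.0 and 39.4 ppm (limma adjusted p = 0.517). The 26 imprinted genes had a summed ratio of 0.391-fold and the 32 germline genes, which are methylated in most adult tissues, one of 0.456-fold, each with Ultra lower in 3 of 3 lines and 0 passed of 7 and 8 tested (0.557% overall). In DU145 these sums rested on 2 and 4 Ultra fragments against 11 and 18 of MethylCollector. FAM50B, an imprinted gene, had 28.8, 32.3 and 21.8 against 90.8, 66.8 and 63.5 ppm, and SYCP2, a meiotic chromosome protein, had 37.6, 16.9 and 22.4 against 84.4, 28.9 and 75.9. The 39 HOX genes, clustered developmental transcription factors, had a ratio of 0.532-fold, also lower in 3 of 3 lines, with 0 passed of 14 tested (0.557% overall). HOXA5 had 37.3, 0 and 22.4 against 36.1, 0 and 77.8 ppm, with like values in HCT15, no depth in DU145 and a lower Ultra value in PC3.

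The summed ratios of the other lists lay nearer to 1 than those of these 4 lists. The 26 epithelial genes, whose median promoter methylation was 17.8%, 19.4% and 18.4%, had a ratio of 0.768-fold, lower in 3 of 3 lines with a log2 ratio of -0.02 in DU145 on 6 fragments per kit. Ribosomal protein genes, 73 promoters with median methylation of 13.8%, 16.4% and 15.2%, had 0.677-fold with PC3 at a log2 ratio of 0.03. The 53 clustered protocadherins, at median methylation of 84.8%, 84.1% and 87.0%, had 0.891-fold, with log2 ratios of -0.23, 0.56 and -0.84. The 240 zinc finger genes of chromosome 19, at median methylation of 34.5%, 20.1% and 22.2%, had 0.941-fold, although the chromosome as a whole was lower in Ultra. The 94 keratin-associated proteins had 0.955-fold and the 398 olfactory receptors 1.08-fold, on medians of 19.5 and 13.0 CpGs per promoter. Ultra was higher in 2 of 3 lines for both of these CpG-poor families. The olfactory receptors had median methylation of 77.7%, 84.2% and 75.6% on 9, 17 and 16 promoters with RRBS values. The keratin-associated proteins had 35.6%, 84.7% and 60.3% on 3, 5 and 2. List ratios thus did not follow median methylation alone. The promoters tested in these lists numbered 2, 1, 3, 12, 0 and 1 in the order given, and 0 passed (0.557% overall). The DU145 sums rested on as few as 1 fragment, as for the ribosomal proteins in Ultra.

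The largest difference at a single place was in favour of Ultra. Among 7045 windows of 1 kb with depth worth at least 20 fragments, the largest mean log2 difference was that of chr19:8953001-8954000, at 1713, 801 and 879 ppm in Ultra and 8.52, 116 and 56.7 in MethylCollector. The window has 9 CpGs and so lies in the lowest CpG class of these windows (under 20), whose median difference was -0.20. It contains the last exon of MBD3L1, the gene of the second capture protein of the Ultra kit, on the plus strand of chromosome 19 (gene chr19:8943053-8954016, coding sequence chr19:8953355-8953936). In HCT15 and PC3 this was the deepest position of the whole Ultra library, with 514 and 240 overlapping fragments, and in DU145 it reached 11.

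The Ultra depth matched the coding sequence and not the exon. The covered block began at bases 8953354, 8953358 and 8953355 and ended at base 8953916 in all 3 lines, while the exon runs from 8953334 to 8953995. In capitals is the coding sequence at both edges of the block, with the start codon ATG at the left.
chr19:8953331-8953390 (left edge): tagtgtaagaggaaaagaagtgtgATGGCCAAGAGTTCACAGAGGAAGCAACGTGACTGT
chr19:8953887-8953946 (right edge): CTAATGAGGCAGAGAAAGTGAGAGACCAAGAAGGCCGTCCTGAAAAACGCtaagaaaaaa
The left edges fell within 3 bases of the first base of the start codon, and the right edge fell 20 bases before the end of the coding sequence. The kilobase before and the kilobase after the coding sequence held 1 and 0 bases of depth in HCT15 and none in DU145 and PC3. Counted by midpoint, 899, 25 and 454 Ultra fragments lay in the 582 bp of coding sequence, or 1402, 836 and 801 per 1000000 autosomal fragments. The MethylCollector libraries had 3, 3 and 5 fragments there, or 11.5, 103 and 59.9 per 1000000. The Ultra share was higher in 3 of 3 lines, with ratios of base depth over the coding sequence of 201-fold, 6.91-fold and 15.5-fold (exact sign-flip p = 0.25, n = 3), and the MethylCollector side of each fold rests on 3 to 5 fragments.

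**Figure D5:**
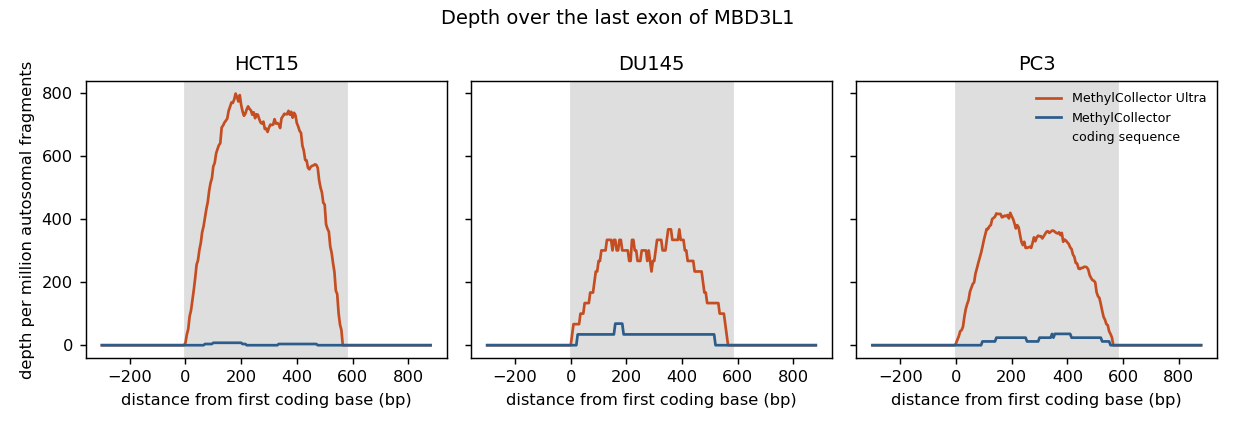
Depth per 1000000 autosomal fragments over the last exon of MBD3L1 against the distance from the first coding base (bp), in HCT15, DU145 and PC3, with the coding sequence shaded. The Ultra depth starts at the first coding base, peaks at 799, 368 and 420.0 per 1000000 and ends 20 bases before the end of the coding sequence, while MethylCollector stays at or below 68.5 per 1000000.

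Libraries of the 3 other kits in the series gave the background at this sequence. MethylMagnet had 9, 1 and 1 fragments in HCT15, DU145 and PC3, MethylCap had 20, 0 and 6, and MethylMiner had 40, 1 and 1. As shares of their libraries these came to 153, 101.3 and 4.23 per 1000000 for MethylMagnet and to at most 6.44 per 1000000 for MethylCap and MethylMiner. Low counts over the coding sequence thus occurred in MethylCollector and MethylMagnet, at a level above that of MethylCap and MethylMiner in most lines. The rest of the MBD3L1 gene had an Ultra enrichment of 0.342, 9.52 and 2.71 against 7903, 3692 and 4053 in the coding sequence. The coding sequence of MBD2, the gene of the other capture protein, held 0, 0 and 1 fragments in Ultra and 0 in each MethylCollector library. Its 1233 bp are spread over chr18:51686150-51750929 in a model of 7 exons, whereas the MBD3L1 coding sequence lies in a single exon. Only pairs that mapped within 400 bp were kept, so a fragment that joins distant exons would not be counted. A fragment inside a single exon would be. The 2 genes are therefore not measured alike. The source of the fragments over the MBD3L1 coding sequence was not tested. The 10 kb window with them held 0.171%, 0.0801% and 0.0882% of the Ultra depth, and leaving out this and 4 other windows of extreme depth did not change the direction of the mean ratio of any annotation class, RRBS methylation or neighbour class, or promoter CpG class. The tiles and the whole chromosomes were not recomputed without these windows.

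A 10 kb window counted as extreme where any 1 of the 6 libraries had more than 0.1% of its depth there. The other 4 windows of extreme depth were lower in Ultra in each line. The window at chr21:9820001-9830000, with MIR3648 and MIR3687, held 0.139%, 0.284% and 0.103% of the Ultra depth and 0.344%, 0.647% and 0.279% of the MethylCollector depth. The window at chr4:190940001-190950000, near the end of the long arm with FRG2 and a DUX4-like repeat, held 0.172%, 0.123% and 0.0663% against 0.342%, 0.154% and 0.131%. The other 2 lay in PLEC on chromosome 8 and by FAM230A and USP41 on chromosome 22. They passed the rule only through MethylCollector, in PC3 (0.127%) and in DU145 (0.1004%). In those lines their lower Ultra share follows from the rule itself. Some of these sequences exist in near-identical copies, where the placing of fragments is uncertain.

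The log2 difference of the 1 kb windows fell with their CpG number, as for the tiles, but its median was below 0 in every CpG class, from -0.20 for under 20 CpGs to -0.56 for 80 or more. Ultra was lower in all 3 lines at 1892 windows and higher at 125. The share that was lower in all 3 lines was 14.3% for windows with under 20 CpGs, 23.7% for 40 to 59 and 32.7% for 80 or more, and the share that was higher fell from 7.14% to 0.412%. After the MBD3L1 window, the next highest differences were at chr6:58778001-58779000, which has no annotated gene, and in VDR, with means of 1.99 and 1.91. Among the lowest was a window in PTPN2, a phosphatase gene. The PTPN2 window (chr18:12912001-12913000, 70 CpGs) had 9.62, 0 and 14.9 ppm in Ultra and 52.5, 103 and 95.9 in MethylCollector. There all Ultra values lay below all MethylCollector values, and no test was run on single windows, which were ranked by these same values. The depth filter of the windows also weighed the deep Ultra libraries of HCT15 and PC3 most.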

How the data were processed

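The 6 MethylCollector and MethylCollector Ultra libraries and the RRBS profiles of HCT15, DU145 and PC3 were used, and the 9 libraries of the other kits only for the depth over the genes of the capture proteins. Per the labels and the study's methods, the authors aligned paired reads with Bowtie to hg19 (GRCh37), kept pairs that mapped uniquely within 400 bp, collapsed duplicates and deposited the depth as runs of bases (signal, not scaled, no pooling). Collapsing duplicates lowers depth most where fragments are dense. The deposited RRBS counts give methylated reads and coverage per CpG, strands summed.

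Depth was divided by the autosomal total of its library, which makes every value a share. Regions came from GENCODE 44 mapped to GRCh37, and an enrichment is depth per base over the autosomal mean. CpGs needed a coverage of at least 20, and promoter methylation at least 5 such CpGs. Fragments were rebuilt from the depth and placed by midpoint. Depth per library ranged from 29613 to 652800 fragments, and all intervals cover counting error only. Sample columns are named by file and none was left unmapped.

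Kits were paired by cell line. Ratios were tested by exact sign-flip and exact permutation tests, and promoters with limma 3.58.1 on log2(parts per 1000000 + 10) with cell line as a block, keeping 20 fragment equivalents over 6 libraries. edgeR 4.0.16 on rebuilt fragments was an alternative. The lines are paired as shared DNA sources, and deviations of promoters from the kit means correlated at 0.43, 0.15 and 0.36 within lines and below 0 between lines. On simulated fragments for 1435 promoters, limma recovered 0% of 2-fold and 0% of 4-fold changes at the real depth and 39% and 45% at 30 times that depth, and edgeR recovered 3% and 36%, then 100% and 100%. Python 3.11.15, numpy 2.4.6, scipy 1.17.1 and R 4.3.3 were used.

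Named promoters were the 10 lowest and 10 highest by mean log2 difference with the same sign in 3 lines, those past the adjusted p of 0.05 first, with 1 kept of overlapping promoters. Up to 3 members of each of 10 gene lists were eligible by mean depth. The members and lists were chosen with earlier results of these data known. Tiles, 1 kb windows, chromosomes, neighbourhoods and the MBD3L1 coding sequence were added after the data were seen. Mitochondrial and soft-masked depth were not analysed here.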

Additional observations from a re-analysis of the deposited data

Results flagged for a closer look

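In a few comparisons the cell lines moved in opposite directions, and the difference between lines was not tested. At CpGs methylated under 10% the log2 ratio of Ultra to MethylCollector was -0.31 in HCT15 and -0.41 in PC3 but 0.16 in DU145. At CpGs of 90% or more with 0 to 1 neighbours it was -0.19 in HCT15 and -0.15 in PC3 but 0.072 in DU145. For promoters reached at equal depth it was 0.076 in HCT15 but -0.035 in DU145 and -0.13 in PC3. The DU145 libraries were the shallowest of each kit and showed the lowest contrast between CpGs methylated in DU145 alone and CpGs methylated in another line alone, 17.6 against 9.79 and 8.92 in Ultra and 34.9 against 18.6 and 11.1 in MethylCollector, and the part of either in these signs was not tested.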

How the results depend on the processing

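The shares of annotation classes, the RRBS methylation classes, the neighbour classes from 2 to 4 upwards and the promoter CpG classes kept their direction under each alternative run. Without 1 line at a time, the mean log2 ratio of promoters ran from -0.61 to -0.41 and that of CpGs at 90% or more from -0.76 to -0.65. For methylated CpGs with 20 or more neighbours it ran from -1.39 to -1.15. The class of methylated CpGs with 0 to 1 neighbours turned from -0.09 to 0.087 with an RRBS coverage of at least 10 and to 0.37 with neighbours counted among all RRBS CpGs. Promoters reached at equal depth ranged from -0.084 to 0.021 without 1 line at a time, and at 0.021 without PC3 the sign turned. The number of promoters lower in Ultra depended on the settings. Against 8, limma gave 0 with a pseudocount of 2, 1 with 50, 0 without a filter, 10 of 81 at 60 fragment equivalents, 14 with library weights and 0 on the median scale, between 0 and 126 without 1 line at a time, and edgeR gave 0 with TMM and 49 with library totals. Promoters higher in Ultra numbered between 0 and 3 without 1 line at a time and 0 otherwise. Without the replicate block, that is unpaired, limma called 2 lower. The cause of these changes was not tested, except that leaving out a line or the filter changes the samples or promoters tested. Depth limited single promoters, with 29613 and 30336 fragments in DU145, and so did the 3 pairs and the scaling.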
